A study of Mus musculus with 5 samples.

Results

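Nucleotide synthesis in hepatocytes of regenerating, adult and juvenile mouse liver is described through 9 genes, taken by name from the 31053 genes of the count matrices. They are Rrm1, Rrm2, Tyms, Tk1, Dut, Dctpp1, Shmt1, Cad and Umps. All 9 were found. CPM are the transcript counts of a gene scaled to a common total in each library. In every comparison of whole libraries, all 9 passed the minimum of 5 CPM in at least 1 library. Each gene was followed across 5 libraries of droplet-based single-cell RNA sequencing, 1 library per group. No replicate check of any difference was therefore possible, and no test between groups was made.

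The mice were C57BL/6J. The groups were a postnatal day 14 (P14) liver, an adult control liver, and regenerating livers taken 24 h, 48 h or 96 h after surgery, a partial hepatectomy (PHx) that removes most of the organ and starts its regrowth. Operated mice were 8 weeks old at surgery. Cells were released by perfusion, passed through dead-cell removal and captured with a 10x v3 kit. The labels give neither the sex of the animals nor how many were pooled, and they contradict each other on the adult control: a protocol counts it with the operated animals, whereas its title and source call it a control, as it was treated here. The last code in the sample descriptions also differs for the adult control alone, so what lies behind this code cannot be told apart from the group.

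Cells make deoxynucleotides for DNA by reducing ribonucleotides, and a methyl group carried by folate turns deoxyuridylate into thymidylate. Ribonucleotide reductase and the thymidylate enzymes are classically produced as cells enter DNA replication, and their transcripts are scarce in resting tissue. The adult liver is mostly quiescent, but its hepatocytes return to the cell cycle after partial hepatectomy, and those of a young animal still divide as the organ grows.

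Hepatocytes were barcodes with at least 5000 unique molecular identifiers (UMIs, the counted transcript molecules), 10% to 30% mitochondrial UMIs and at least 1% of UMIs from Alb, Apoa1 and Ttr together. This left 2106 hepatocytes for P14, 925 for the adult control, 1170 for 24 h, 719 for 48 h and 771 for 96 h, with a median depth between 18527 and 38922.5 UMIs per cell. Barcodes above 30% mitochondrial UMIs that met the other limits were left out, 1701 for 96 h and 363 to 501 for each other library. No alternative went above 30%. All 10 further hepatocyte markers were detected in every library, with a summed level of 34779 to 87924 CPM. In the same hepatocytes, 6 or 7 of 8 erythroid markers summed to 124 to 762 CPM, and 8 to 10 of 10 neutrophil markers to 11.8 to 195 CPM, both lists being highest in the 48 h library. The lists of T or NK, B, myeloid, endothelial and mesenchymal cells summed to at most 47.4 CPM each, and that of cholangiocytes to 35.6 to 188 CPM. A UMI was found for 6 to 9 of 10 mesenchymal genes and for 2 to 6 of 6 cholangiocyte genes. Among those at 0 were Col1a1 in all 5 libraries and Krt19 in all but P14. The part of these cells in the values given here was not tested. Only 3 barcodes were shared between hepatocytes of different libraries. Levels are CPM of non-mitochondrial UMIs summed over a library's hepatocytes, with a 95% Poisson interval in brackets, and ratios carry a 95% interval from the same counts. All intervals cover counting error only.

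Rrm1, on mm10 at chr7:102441695-102469771, encodes the large subunit of ribonucleotide reductase. Its level was 36.3 CPM (34.8 to 37.8) for P14, 10.6 (8.91 to 12.5) for the adult control, 84.3 (80.3 to 88.5) for 24 h, 70.3 (66.7 to 74.0) for 48 h and 28.3 (25.6 to 31.3) for 96 h. The adult control was lowest, and no intervals overlapped, the 24 h and 48 h libraries standing highest. Over the adult control, Rrm1 was 7.97-fold (6.70 to 9.53) higher in the 24 h library, 6.64-fold (5.58 to 7.95) in the 48 h, 2.68-fold (2.20 to 3.27) in the 96 h and 3.43-fold (2.89 to 4.09) in the P14 library. The 96 h ratio was 1.86 with a pseudocount of 10 CPM, short of 2-fold.

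Rrm2, at chr12:24708241-24714146, encodes the small subunit, which carries the radical needed for catalysis. Its level was 17.1 CPM (16.1 to 18.1) for P14, 3.75 (2.79 to 4.95) for the adult control, 94.2 (89.9 to 98.6) for 24 h, 63.0 (59.7 to 66.5) for 48 h and 24.3 (21.7 to 27.04) for 96 h. The adult value rests on 50 UMIs, 10 of them in a single cell, and the 24 h value on 1838. Rrm2 differed more from the adult control than any other member in the 3 libraries after surgery. It was 25.1-fold (18.9 to 33.9) higher in the 24 h library, rank 59 from the top of 9028 genes. Rrm2 lay under 5 CPM in the adult control, so it entered this ranking through the 24 h library, where it was high. It was 16.8-fold (12.7 to 22.7) higher in the 48 h, 6.46-fold (4.79 to 8.88) in the 96 h and 4.55-fold (3.43 to 6.17) in the P14 library, the last being 1.97 with the pseudocount of 10 CPM. The 10% of hepatocytes with most Rrm2 held 64.1% of its UMIs in the 24 h, 63.4% in the 48 h and 90.6% in the P14 library, and a single cell held up to 27 UMIs. In the 24 h library this share was 70.0% for Tk1, 69.3% for Cad, 62.2% for Tyms and 30.6% to 47.4% for the remaining members. It was 100% for Rrm2, Tyms and Cad in the adult control, on 50 to 82 UMIs.

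Tyms, at chr5:30058202-30073617 on the minus strand, encodes thymidylate synthase, which makes thymidylate from deoxyuridylate. Its level was 21.4 CPM (20.3 to 22.6) for P14, 4.58 (3.50 to 5.88) for the adult control, 20.2 (18.2 to 22.3) for 24 h, 43.8 (41.0 to 46.7) for 48 h and 16.5 (14.4 to 18.8) for 96 h. The highest library was therefore 48 h, whereas both reductase genes were highest in the 24 h library. From 24 h to 48 h Tyms was 2.168-fold (1.92 to 2.45) higher, while Rrm1 stood at 0.833 (0.776 to 0.894) and Rrm2 at 0.669 (0.623 to 0.719) of its earlier level. It was the 1 member past 2-fold higher between these libraries, where 2.22% of 8817 genes were, and 0 members were past 2-fold lower, where 2.21% were. Admitting cells below 10% mitochondrial UMIs brought the Tyms ratio to 1.81, and a pseudocount of 10 CPM to 1.78, both short of 2-fold. Over the adult control Tyms was 4.41-fold (3.36 to 5.87) higher in the 24 h library, 9.56-fold (7.37 to 12.6) in the 48 h, 3.61-fold (2.71 to 4.87) in the 96 h and 4.68-fold (3.62 to 6.15) in the P14 library. The 96 h ratio was 1.82 with the pseudocount and 1.61 with at least 5% of UMIs from Alb, Apoa1 and Ttr, which left 47 adult hepatocytes. The annotation lists a pseudogene, Tyms-ps, with which reads could be shared.

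The promoter stretches of these 3 genes, whose levels were each at least 2-fold higher in the other 4 libraries than in the adult control, are printed from RefSeq (build GRCm38.p6), on the strand of the gene and from its 5′ end. Of the 9 genes, 9 matched an entry. Capitals mark an E2F-type word, CCAAT or a GC box.
Rrm1, chr7:102441545-102441694, plus strand: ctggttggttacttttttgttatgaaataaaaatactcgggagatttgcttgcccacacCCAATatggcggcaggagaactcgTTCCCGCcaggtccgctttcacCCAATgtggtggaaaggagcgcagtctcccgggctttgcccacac
Rrm2, chr12:24708091-24708240, plus strand: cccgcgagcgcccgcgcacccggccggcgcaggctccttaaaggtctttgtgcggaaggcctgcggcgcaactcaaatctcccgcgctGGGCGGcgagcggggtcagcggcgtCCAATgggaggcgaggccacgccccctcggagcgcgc
Tyms, chr5:30073626-30073775, minus strand: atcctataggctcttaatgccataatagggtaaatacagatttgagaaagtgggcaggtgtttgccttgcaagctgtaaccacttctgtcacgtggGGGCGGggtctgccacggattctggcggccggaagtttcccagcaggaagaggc
Words were searched on both strands of windows from 250 bases before to 50 after the start. E2F-type words (first TTCCCGC, second the word TTGGCGC, then the word TTGCCGC, and last the word TTCGCGC) were found in 4 members (Rrm1, Rrm2, Cad and Shmt1) and in 9.57% of 32851 windows. The match of Rrm1 lay at -67 and that of Rrm2 at -235, outside the printed stretch. CCAAT was found in 4 members (Rrm1, Rrm2, Shmt1 and Dctpp1) and in 37.4% of windows. The GC box GGGCGG was found in 8 members, all but Rrm1, and in 35.7%. The word TTTGAA and its variant, the word TTCGAA, known from cell-cycle gene promoters, were found in 1 member, Umps, and in 19.2%. Rrm1 and Rrm2, which held an E2F-type word, were past 2-fold over the adult control in all 4 other libraries. Cad and Shmt1, which also held one, were not past it in any library. Tyms, which held none in this window, was past it in all 4. The part of these words in the levels was not tested.

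**Figure D1:**
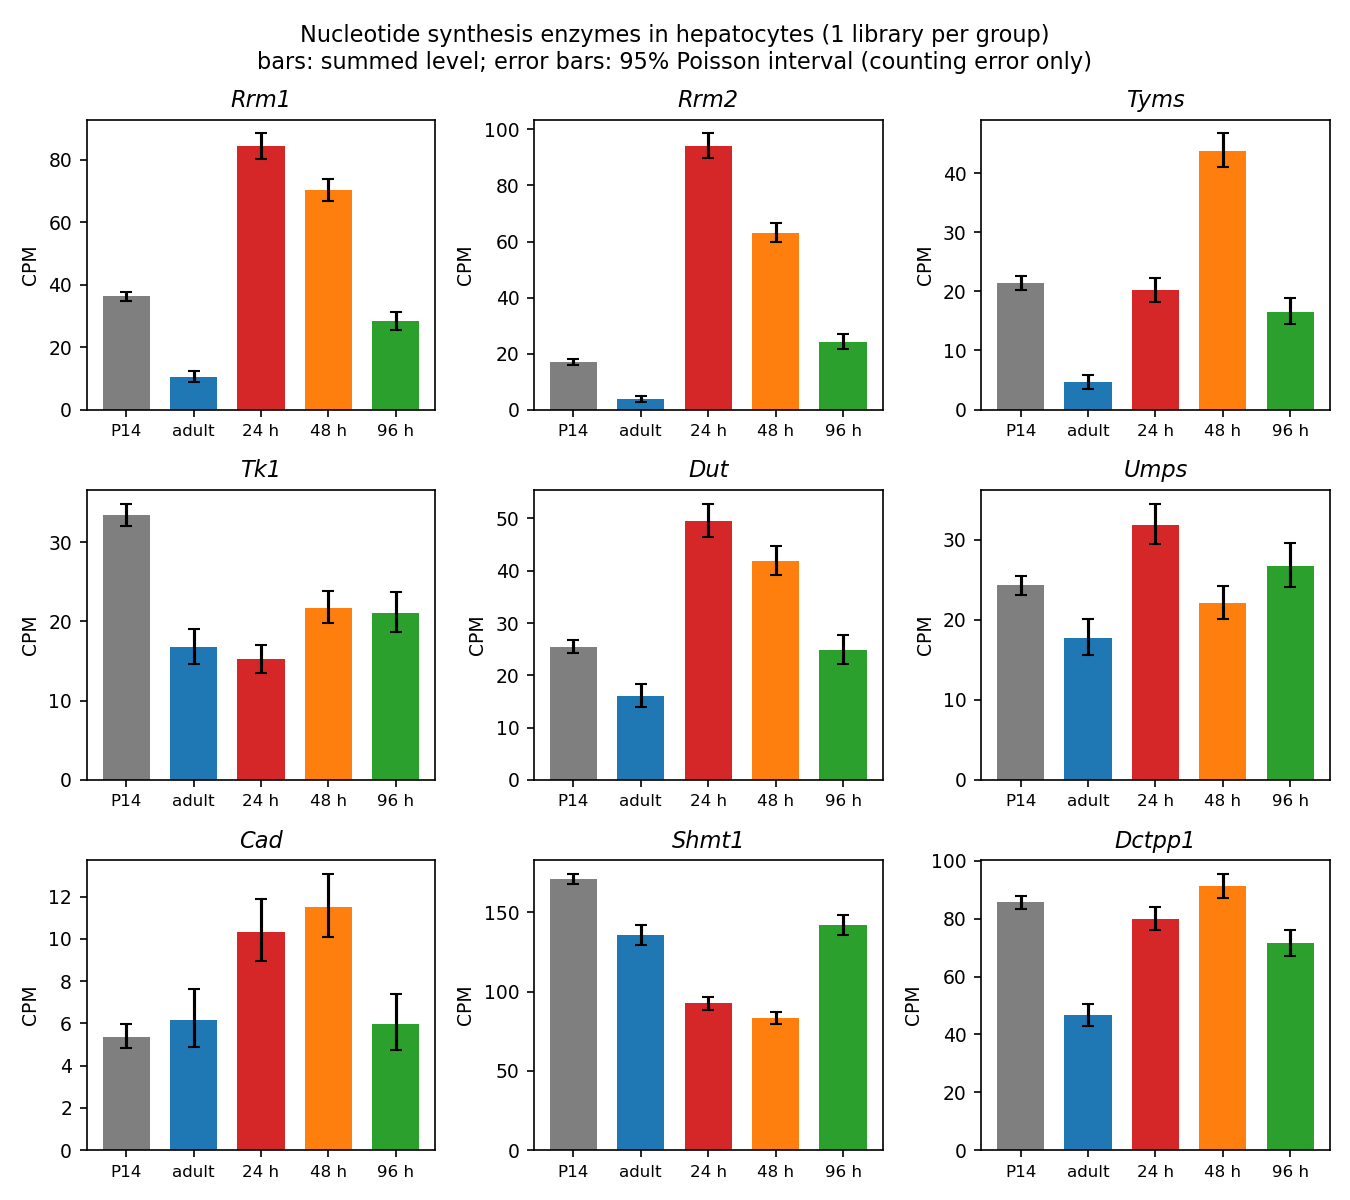
Level of each enzyme gene in hepatocytes of the 5 libraries, in CPM of non-mitochondrial UMIs on an axis that starts at 0 and is scaled for each gene; bars are the summed level of 1 library and error bars 95% Poisson intervals. Rrm1 and Rrm2 were highest in the 24 h library (84.3 and 94.2 CPM), Tyms in the 48 h (43.8 CPM) and Tk1 in the P14 library (33.4 CPM), and Shmt1 was lowest in the 48 h library (83.1 CPM).

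Tk1, at chr11:117815526-117826092 on the minus strand, encodes the cytosolic thymidine kinase, which salvages thymidine and is a known marker of dividing cells. Its level was 33.4 CPM (32.0 to 34.8) for P14, 16.7 (14.6 to 19.1) for the adult control, 15.2 (13.5 to 17.1) for 24 h, 21.7 (19.8 to 23.8) for 48 h and 21.1 (18.7 to 23.7) for 96 h. The 24 h interval overlapped that of the adult control, and those of 48 h and 96 h overlapped each other. Its ratio over the adult control was 0.909 (0.761 to 1.09) in the 24 h library, 1.30 (1.104 to 1.53) in the 48 h, 1.26 (1.05 to 1.51) in the 96 h and 1.99 (1.74 to 2.30) in the P14 library. Tk1 was thus short of 2-fold in each of these comparisons.

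Dut and Dctpp1 encode enzymes that clean the nucleotide pool, Dut by removing dUTP and Dctpp1 by removing dCTP and modified forms of it. Dut, at chr2:125247190-125258608, had a level of 25.4 CPM (24.2 to 26.7) for P14, 16.1 (14.0 to 18.4) for the adult control, 49.6 (46.5 to 52.8) for 24 h, 41.9 (39.2 to 44.8) for 48 h and 24.9 (22.3 to 27.7) for 96 h. The libraries stood in the same order as for Rrm1, with a smaller span, and the P14 and 96 h intervals overlapped. Dut was 3.09-fold (2.66 to 3.60) higher than the adult control in the 24 h library and 2.61-fold (2.24 to 3.04) in the 48 h, the latter being 1.99 with the pseudocount of 10 CPM. It was 1.55-fold (1.30 to 1.84) higher in the 96 h and 1.58-fold (1.37 to 1.83) in the P14 library. Dctpp1, at chr7:127256959-127260709 on the minus strand, had a level of 85.8 CPM (83.5 to 88.0) for P14, 46.6 (43.0 to 50.4) for the adult control, 80.1 (76.2 to 84.2) for 24 h, 91.3 (87.2 to 95.5) for 48 h and 71.5 (67.1 to 76.2) for 96 h. All 4 ratios of Dctpp1 over the adult control lay between 1.53 and 1.96, short of 2-fold.

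Shmt1 encodes the cytosolic serine hydroxymethyltransferase, which loads folate with the carbon used by thymidylate synthase, and lies at chr11:60788104-60811718 on the minus strand. Its level was 171 CPM (168 to 174) for P14, 136 (129 to 142) for the adult control, 92.5 (88.3 to 96.9) for 24 h, 83.1 (79.3 to 87.1) for 48 h and 142 (136 to 148) for 96 h. The 24 h and 48 h libraries lay below the adult control with separate intervals, at ratios of 0.682 (0.639 to 0.729) and 0.613 (0.574 to 0.656). The ratio was 1.05 (0.982 to 1.12) in the 96 h and 1.26 (1.20 to 1.33) in the P14 library. From 48 h to 96 h Shmt1 was 1.71-fold (1.60 to 1.82) higher, rank 821 of 8966 genes. Its UMIs were spread widely, with 22.0% to 30.6% of them in the richest 10% of cells.

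Cad and Umps encode the multifunctional proteins that carry out the first and the last steps of new pyrimidine synthesis. Cad, at chr5:31054780-31078479, had a level of 5.37 CPM (4.82 to 5.97) for P14, 6.16 (4.90 to 7.64) for the adult control, 10.4 (8.97 to 11.9) for 24 h, 11.5 (10.1 to 13.1) for 48 h and 5.95 (4.72 to 7.41) for 96 h. The libraries fell into a higher pair, 24 h and 48 h, and 3 lower libraries whose intervals overlapped. The ratios over the adult control were 1.68 (1.29 to 2.20) and 1.87 (1.45 to 2.43) for the higher pair. Umps, at chr16:33954782-33967038 on the minus strand, had a level of 24.3 CPM (23.1 to 25.5) for P14, 17.7 (15.5 to 20.1) for the adult control, 31.9 (29.4 to 34.5) for 24 h, 22.0 (20.1 to 24.1) for 48 h and 26.7 (24.0 to 29.6) for 96 h. The highest ratio of Umps over the adult control was 1.80 (1.55 to 2.10) in the 24 h library, and in the 48 h library it was 1.24 (1.06 to 1.46).

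Counted together, 4 of the 9 members were at least 2-fold higher than the adult control in the 24 h library, where 9.59% of 9028 genes were. In the adult control Rrm2 and Tyms lay under 5 CPM, so that they passed this minimum through the other library. These were Rrm1, Rrm2, Tyms and Dut, and the same 4 were past 2-fold in the 48 h library, against 9.33% of 9035 genes. In the 96 h library 3 members were past 2-fold (Rrm1, Rrm2 and Tyms), against 4.84% of 8890 genes, and in the P14 library the same 3, against 8.77% of 9011. The count of members at least 2-fold lower was 0 in each of these libraries, where 8.35%, 8.78%, 2.31% and 15.3% of genes were. The median member ratio was 1.80, 1.96, 1.53 and 1.84 in that order, beside 0.999, 0.943, 1.03 and 0.824 over all genes tested. The 4 comparisons share the adult control library.

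The P14 comparison depends on scaling, since the median gene there lay at a log2 ratio of -0.28. Relative to that median, the log2 differences for P14 were 2.06 for Rrm1, 2.46 for Rrm2, 2.50 for Tyms, 1.27 for Tk1, 1.16 for Dctpp1, 0.94 for Dut, 0.73 for Umps, 0.61 for Shmt1 and 0.08 for Cad. Cad lay below the adult control as a plain ratio, at 0.873 (0.684 to 1.12), and above the median gene on this scale. With TMM scaling 6 members were past 2-fold in place of 3, but the share of all genes past 2-fold was not computed with this scaling.

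**Figure D2:**
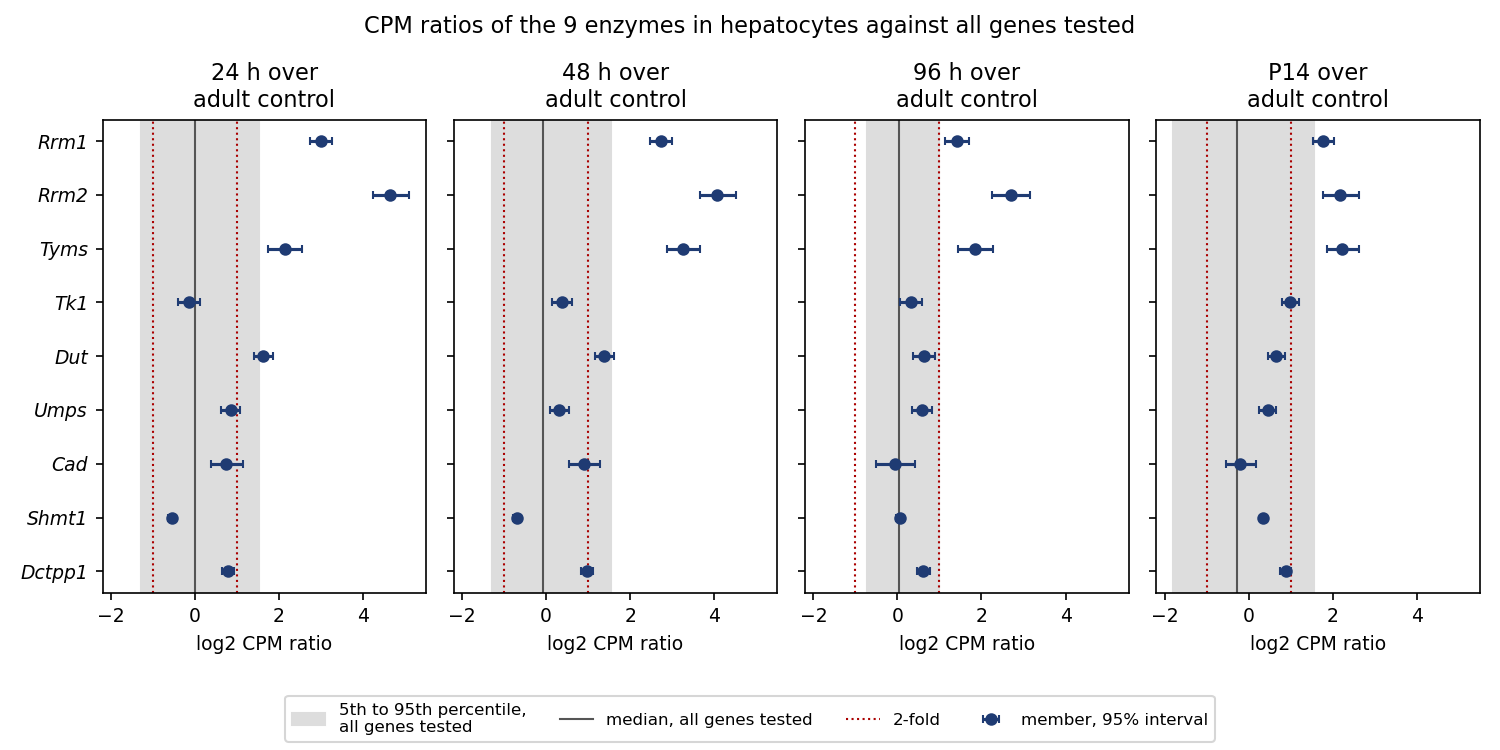
CPM ratios over the adult control on a log2 axis, 1 panel per library, with 95% intervals from the counts; the grey band holds the middle 90% of all genes tested, the line in it is their median, and dotted lines mark 2-fold. Rrm1, Rrm2 and Tyms lie to the right of the band in all 4 panels, and Shmt1 lies left of the median for 24 h and 48 h.

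The comparisons within the libraries after surgery do not use the adult control. From 48 h to 96 h, 3 members were at least 2-fold lower, against 4.66% of 8966 genes: Tyms at 0.377 (0.324 to 0.437), Rrm2 at 0.385 (0.340 to 0.435) and Rrm1 at 0.403 (0.359 to 0.452). The count of members past 2-fold higher was 0, against 5.23% of genes. Cad stood at 0.517 (0.396 to 0.668) and Dut at 0.593 (0.521 to 0.674). Tk1 stood at 0.968 (0.832 to 1.13), an interval that holds 1. In the 96 h library the 3 genes were still above the adult control, at the ratios given with each gene.

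The share of hepatocytes with a transcript was compared after every cell was thinned to 5000 UMIs, since depth differed between libraries. The share of hepatocytes with Rrm2 was then 5.18% (4.27% to 6.21%) for P14, 1.08% (0.520% to 1.98%) for the adult control, 19.9% (17.7% to 22.3%) for 24 h, 13.5% (11.1% to 16.2%) for 48 h and 5.97% (4.40% to 7.88%) for 96 h. Without thinning the Rrm2 shares were 15.0% for P14, 4.00% for the adult control, 35.4% for 24 h, 42.7% for 48 h and 17.9% for 96 h, so that the order of 24 h and 48 h turned with depth. T or NK-like cells, which can also divide, were set beside them, with median depths of 6400 to 8731.5 UMIs. Their thinned Rrm2 shares were 0 of 22 cells for P14, which allows a share of cells with a UMI of up to 13.6% by a limit of 3 counts and up to 15.4% by the exact interval, 1.504% for the adult control, 6.38% for 24 h, 1.60% for 48 h and 2.27% for 96 h. The intervals of these shares were 0.411% to 3.81% for the adult control, 1.34% to 17.5% for 24 h, 0.194% to 5.66% for 48 h and 0.276% to 7.97% for 96 h. The hepatocyte share lay above that of T or NK-like cells with separate intervals for 24 h and 48 h only, and the 22 cells for P14 were too few for a comparison. In the adult control it did not exceed that of T or NK-like cells, and no share of expressing hepatocytes is read from it, while 9.11% of its Rrm2 UMIs would be free RNA at the level of cell-free droplets.

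Rrm1 was found in 24.7% (22.3% to 27.3%) of thinned hepatocytes for 24 h and 20.6% (17.7% to 23.7%) for 48 h, against 4.43% (3.20% to 5.97%) in the adult control, where the share of T or NK-like cells was 14.9% (6.20% to 28.3%), 5.60% (2.28% to 11.2%) and 5.26% (2.91% to 8.67%). The intervals of both cell types were separate for 48 h and overlapped for 24 h. The adult control share of Rrm1 did not exceed that of T or NK-like cells and is not read either, while 8.43% of its Rrm1 UMIs would be free RNA. Tk1 was found in 11.6% of thinned P14 hepatocytes and in 5.90% to 6.61% of those in the other 4 libraries. In those 4 libraries T or NK-like cells had 0.8% to 4.55%, with upper bounds of up to 11.3%. For P14 T or NK-like cells had 9.09% (1.12% to 29.2%), on 22 cells, an interval that holds the hepatocyte share. Dut was found in more T or NK-like cells (36.2% for 24 h) than hepatocytes (16.5%), and its shares are not read here. The Shmt1 share was 49.0% for P14, 41.1% for the adult control, 32.6% for 24 h, 28.9% for 48 h and 39.4% for 96 h. At the level of free RNA in cell-free droplets, between 0.414% and 17.5% of a member's hepatocyte UMIs would be free RNA, the most being Tyms in the adult control. Subtracting it gave 5 members past 2-fold for 48 h in place of 4, and the same counts for the other 3 libraries over the adult control. The share of all genes past 2-fold was not computed after this subtraction.

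Members were found together in 1 cell at different rates. With every cell at 5000 UMIs, the share of hepatocytes with at least 3 of the 9 transcripts was 12.3% (11.0% to 13.8%) for P14, 2.92% (1.93% to 4.22%) for the adult control, 18.3% (16.1% to 20.6%) for 24 h, 15.2% (12.6% to 18.0%) for 48 h and 7.65% (5.88% to 9.76%) for 96 h. The adult control share was below the other 4, with separate intervals. The share was not computed for T or NK-like cells, nor set against the value that the single-gene shares alone would give. With 0% to 30% mitochondrial UMIs the share was 5.02% for the adult control and 14.0% for 96 h, and with cells thinned to 10000 UMIs it was 42.3% for 48 h and 41.2% for 24 h, so that their order turned. In the 24 h library, Rrm1 was found in 45.5% (39.0% to 52.1%) of the 233 hepatocytes with Rrm2 and in 19.5% (17.0% to 22.2%) of the 937 without it. Shmt1 was found in 35.2% (29.1% to 41.7%) and 32.0% (29.04% to 35.1%) of the same cells, with overlapping intervals. These shares count cells of 1 library and describe that library.

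Hepatocytes were then divided by genes outside the set, using 32 replication genes and 38 mitosis genes at 5000 UMIs. A cell with at least 3 mitosis genes was called mitosis-positive, one with at least 3 replication genes and fewer than 3 mitosis genes replication-positive, and one with no mitosis gene and at most 1 replication gene non-cycling. The share of mitosis-positive cells was 13.4% for P14, 0.757% for the adult control, 19.9% for 24 h, 43.9% for 48 h and 11.0% for 96 h. The replication-positive share was 5.18% for P14, 0.865% for the adult control, 29.6% for 24 h, 10.7% for 48 h and 1.95% for 96 h. Mitosis-positive cells could also hold replication genes, with a median of 6 in the 24 h library, above the 4 of its replication-positive class, and of 2 for 48 h and P14. The classes are ranges of a count, and 110 of the 346 replication-positive cells of the 24 h library lay at the limit of 3 genes. Classes of fewer than 20 cells, which are both cycling classes of the adult control and the replication-positive class of the 96 h library, were given no value.

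Rrm2 showed the widest spread over these classes. In the 24 h library its level was 5.97 (4.08 to 8.43) CPM in non-cycling, 65.1 (58.6 to 72.0) in replication-positive and 315 (299 to 332) in mitosis-positive hepatocytes. Mitosis-positive cells held 75.8% of all Rrm2 UMIs in the 24 h, 87.7% in the 48 h, 69.0% in the 96 h and 82.8% in the P14 library. The ratio of mitosis-positive to non-cycling cells was 52.8 (37.2 to 77.4), 61.1 (32.1 to 134), 28.2 (19.7 to 41.5) and 64.1 (49.97 to 83.4) in the same order. Between the cycling classes Rrm2 differed by 4.84-fold (4.32 to 5.44) in the 24 h, 1.87-fold (1.54 to 2.29) in the 48 h and 4.74-fold (3.75 to 6.07) in the P14 library. In that comparison of mitosis-positive with replication-positive cells, 2 members were past 2-fold higher for 24 h (Rrm2 and Tk1), against 4.04% of genes, 0 for 48 h, against 6.45%, and 3 for P14 (with Tyms), against 5.95%. The count past 2-fold lower was 0 in all 3, against 0.278%, 1.53% and 0.741%.

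In mitosis-positive over non-cycling cells, Rrm1 was 7.10-fold (5.90 to 8.59) higher in the 24 h, 5.23-fold (4.26 to 6.48) in the 48 h, 4.97-fold (3.92 to 6.32) in the 96 h and 8.998-fold (8.15 to 9.94) in the P14 library. Tyms was 5.96-fold, 5.01-fold, 7.94-fold and 8.00-fold higher in that order, and Dut 4.87-fold, 2.98-fold, 3.41-fold and 4.42-fold. Together with Tk1, these 5 members were past 2-fold in all 4 libraries. In non-cycling cells Rrm2 lay under 5 CPM for 48 h, 96 h and P14, and Tk1 for 24 h. There they passed this minimum through the mitosis-positive class, where they were high. With Cad at 2.42 (1.60 to 3.72), 6 members were past 2-fold in the 24 h library, where 9.4% of 8967 genes were, and 5 for 48 h, 96 h and P14, where 9.58%, 9.73% and 9.7% were. The Cad ratio was 1.88 without doublets called by Scrublet, 1.83 with 10% to 25% mitochondrial UMIs and 1.57 with the pseudocount of 10 CPM. The count past 2-fold lower was 0 in all 4 libraries, against 0.625%, 0.733%, 1.9% and 0.112%.

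Between replication-positive and non-cycling cells, the same 5 members (Rrm1, Rrm2, Tyms, Tk1 and Dut) were past 2-fold higher for 24 h, 48 h and P14, against 3.29%, 4.65% and 3.51% of genes, and 0 were past 2-fold lower, against 0.185%, 0.854% and 0.151%. Rrm2 was 10.9-fold (7.59 to 16.2) higher in the 24 h library, and Tk1 2.70-fold (1.71 to 4.40). Here too Rrm2 for 48 h and P14, and Tk1 for 24 h, passed 5 CPM through the replication-positive class alone. With the pseudocount of 10 CPM 2 members were past 2-fold for 24 h and 3 for 48 h, and the Tk1 ratio for P14 was 1.73. With the narrower mitochondrial limit of 10% to 25% the Tk1 ratio was 1.55 for 24 h and 1.32 for 48 h, and with a minimum of 10000 UMIs it was 1.79 and 1.60, in place of 2.70 and 2.20.

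Shmt1, Umps and Dctpp1 were not past 2-fold in mitosis-positive over non-cycling cells in any of the 4 libraries. Shmt1 stood at ratios of 0.916 (0.798 to 1.05) for 24 h, 0.814 (0.724 to 0.915) for 48 h, 0.937 (0.812 to 1.08) for 96 h and 0.993 (0.937 to 1.05) for P14. Its level after surgery was also below the adult control within non-cycling cells, at 0.669 (0.603 to 0.741) for 24 h and 0.678 (0.610 to 0.753) for 48 h. Dctpp1 was 1.52-fold to 1.86-fold higher in mitosis-positive cells.

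**Figure D3:**
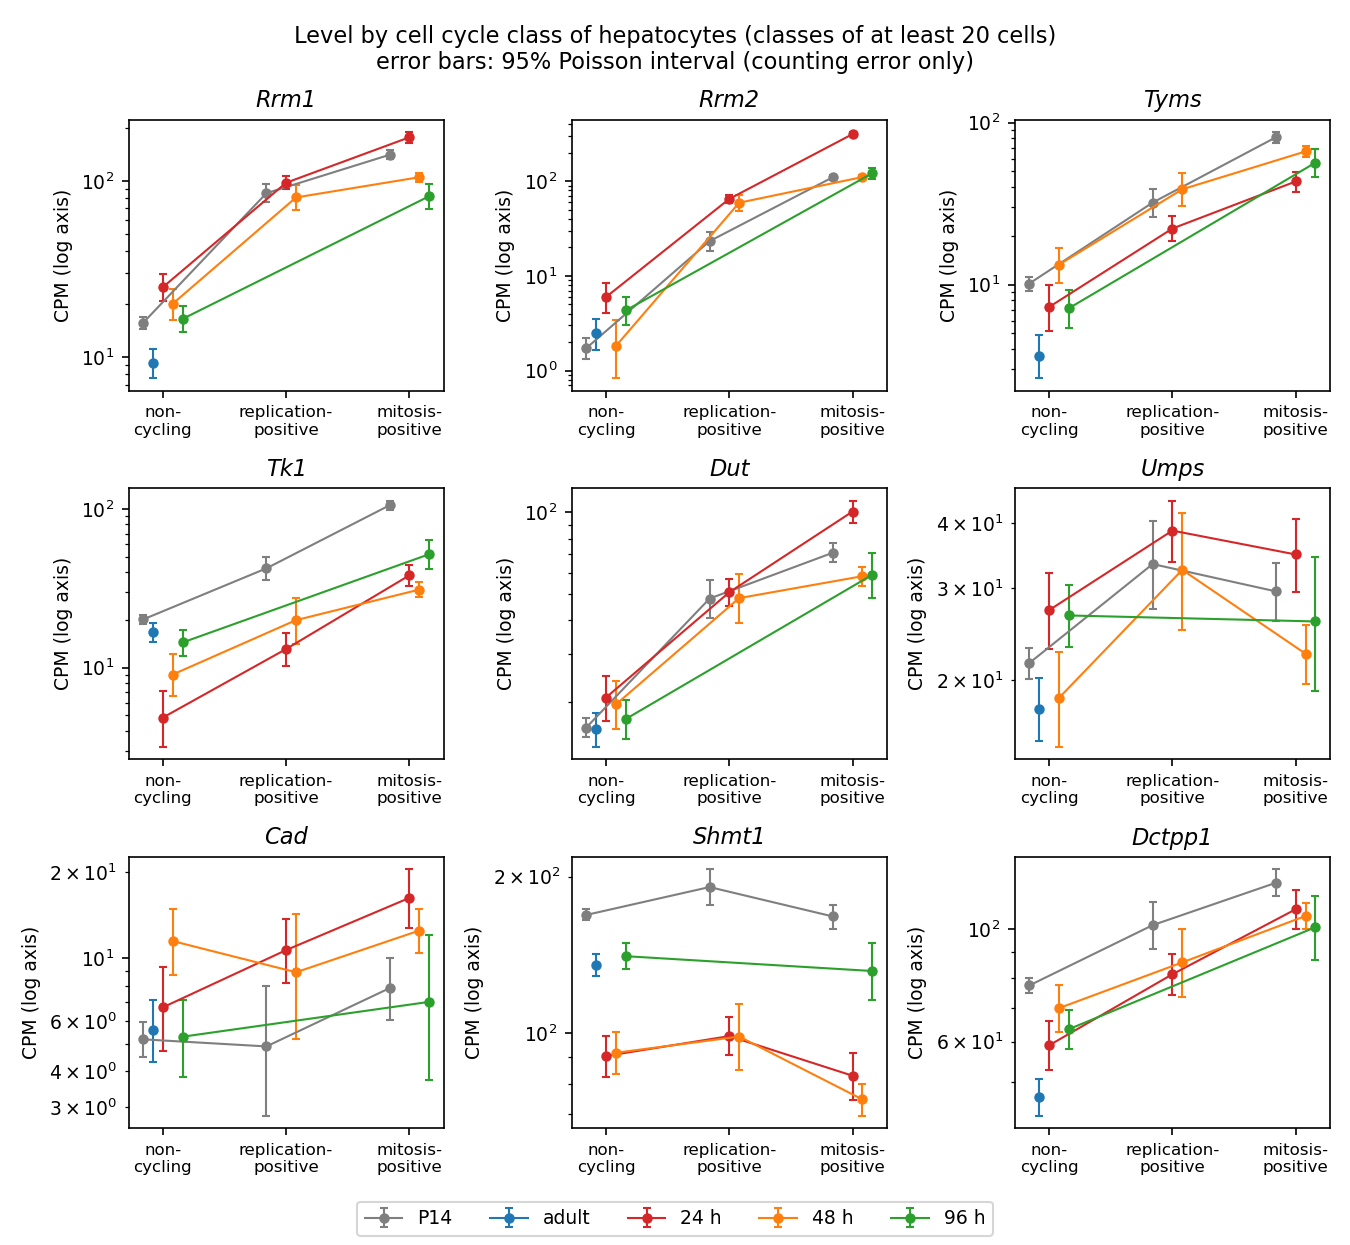
Level of each enzyme gene by cell cycle class of hepatocytes, in CPM on a log axis, with 1 colour per library and 95% Poisson intervals; classes under 20 cells are left out, so that the adult control has its non-cycling class only. Rrm2 climbs from 5.97 to 315 CPM in the 24 h library, and Tk1 from 4.85 to 38.2 CPM.

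Tk1 stood lowest in non-cycling cells of the 24 h library and was higher in mitosis-positive than in non-cycling cells of all 4 libraries compared. In non-cycling hepatocytes its level was 20.1 CPM (18.7 to 21.6) for P14, 16.7 (14.5 to 19.2) for the adult control, 4.85 (3.17 to 7.11) for 24 h, 9.06 (6.61 to 12.1) for 48 h and 14.4 (11.9 to 17.3) for 96 h. The 24 h ratio over the adult control in these cells was 0.290 (0.185 to 0.438), on 26 and 197 UMIs, and the 48 h ratio 0.541 (0.383 to 0.752). With a pseudocount of 10 CPM the 24 h ratio was 0.556, short of 2-fold. In mitosis-positive cells Tk1 stood at 38.2 CPM for 24 h, 31.0 for 48 h, 51.8 for 96 h and 106 for P14. This was 7.87-fold (5.19 to 12.4) higher than in non-cycling cells of the same library for 24 h, 3.43-fold (2.50 to 4.79) for 48 h, 3.60-fold (2.72 to 4.75) for 96 h and 5.24-fold (4.76 to 5.78) for P14. Mitosis-positive cells held 56.9% of Tk1 UMIs in the 24 h library.

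Tk1 overlaps Afmid, which lies on the opposite strand, and whether counting used the strand is not given in the sources used here, so reads of these genes may not be told apart. Afmid in non-cycling hepatocytes stood at 12.8 CPM (11.7 to 14.0) for P14, 9.26 (7.60 to 11.2) for the adult control, 3.36 (1.99 to 5.31) for 24 h, 3.42 (1.99 to 5.48) for 48 h and 9.49 (7.49 to 11.9) for 96 h. It had its lowest levels in the 24 h and 48 h libraries, as Tk1 did in these cells, and its part in the Tk1 values was not tested. Umps overlaps an antisense gene and Shmt1 overlaps Smcr8 on the other strand, with the same uncertainty. Rrm1 overlaps a predicted gene on its own strand, which strand would not tell apart.

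Among the other members in non-cycling hepatocytes, Tyms was 3.64-fold (2.44 to 5.47) higher than in the adult control for 48 h and 2.78-fold (2.03 to 3.91) for P14, and Rrm1 2.70-fold (2.08 to 3.51) for 24 h and 2.175-fold (1.64 to 2.88) for 48 h. Tyms lay at 3.65 CPM in the adult control, on 43 UMIs, and so passed 5 CPM through the 48 h or P14 library alone. Rrm2 was 2.42-fold (1.42 to 4.15) higher for 24 h, on 32 and 29 UMIs, and passed 5 CPM through the 24 h library alone. Its non-cycling level was 1.72 CPM (1.33 to 2.18) for P14, 2.46 (1.65 to 3.54) for the adult control, 5.97 (4.08 to 8.43) for 24 h, 1.81 (0.828 to 3.44) for 48 h and 4.31 (3.00 to 5.997) for 96 h. P14 and 48 h thus lay below the adult control with overlapping intervals, and Rrm2 was under 5 CPM on both sides, and so not counted, in every comparison but that of 24 h. With the pseudocount of 10 CPM these 5 ratios were 1.71, 1.48, 1.82, 1.56 and 1.28, all short of 2-fold. With 0% to 30% mitochondrial UMIs Rrm2 was 1.95 for 24 h and Rrm1 1.91 for 48 h. Rrm1 was 1.72 for 48 h without Scrublet doublets, and Tyms 1.32 for P14 with the 5% limit on Alb, Apoa1 and Ttr. Cad, at 2.05 (1.41 to 2.96) for 48 h, was between 1.31 and 1.97 under the 6 alternatives. In this comparison 2 members were past 2-fold higher for 24 h, 3 for 48 h, 0 for 96 h and 1 for P14, where 5.68%, 4.69%, 3.75% and 7.32% of genes were. The count past 2-fold lower was 1 for 24 h (Tk1) and 0 for the other 3, where 9.55%, 11.5%, 2.9% and 18.2% of genes were.

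Position along the liver lobule was read from a score of 10 pericentral and 10 periportal genes, and each library's hepatocytes were ranked and split into 3 parts. The median score ran from -1.0 in the periportal to 1.70 in the pericentral part for P14. It ran from -3.39 to 1.23 for the adult control, -2.14 to 2.06 for 24 h, -1.0 to 2.26 for 48 h and -3.20 to 1.81 for 96 h. The parts are thus relative to each library and not alike between libraries. Rrm2 stood at 24.5 (22.5 to 26.7) CPM in the periportal and 10.0 (8.75 to 11.4) in the pericentral part for P14. It stood at 61.5 (55.7 to 67.8) and 129.9 (121 to 139) CPM for 24 h, and at 11.2 (8.13 to 15.0) and 36.4 (31.4 to 42.1) for 96 h. The pericentral over periportal ratio was 0.409 (0.348 to 0.479) for P14, 2.11 (1.87 to 2.38) for 24 h, 1.53 (1.33 to 1.75) for 48 h and 3.25 (2.33 to 4.63) for 96 h. In the adult control it was 1.55 (0.693 to 3.63), on 18 and 11 UMIs. The P14 library thus lay on the other side of 1 from the 3 libraries after surgery. Of the 9 members, 6 had a ratio below 1 for P14 and above 1 in another library with intervals that left out 1, where 10.2% of 8337 genes did, and 13.3% lay on opposite sides in either direction. The share of mitosis-positive cells went from 15.5% periportal to 11.5% pericentral for P14, from 11.5% to 27.4% for 24 h, from 46.9% to 41.4% for 48 h and from 1.56% to 21.0% for 96 h, and its part in the ratios was not tested. The share and the Rrm2 ratio went in the same direction for P14, 24 h and 96 h, and in opposite directions for 48 h.

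Tyms had its highest zonal ratio in the 96 h library, at 3.90 (2.52 to 6.25), while the ratio was 1.00 (0.849 to 1.18) for 48 h and 0.714 (0.625 to 0.815) for P14. Dut gave 1.99 (1.48 to 2.69) for 96 h and 0.881 (0.782 to 0.992) for P14. The ratios of Shmt1 were 0.972 to 1.11 over the 5 libraries. Those of Umps were 0.892 to 1.30, and each of its intervals held 1.

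**Figure D4:**
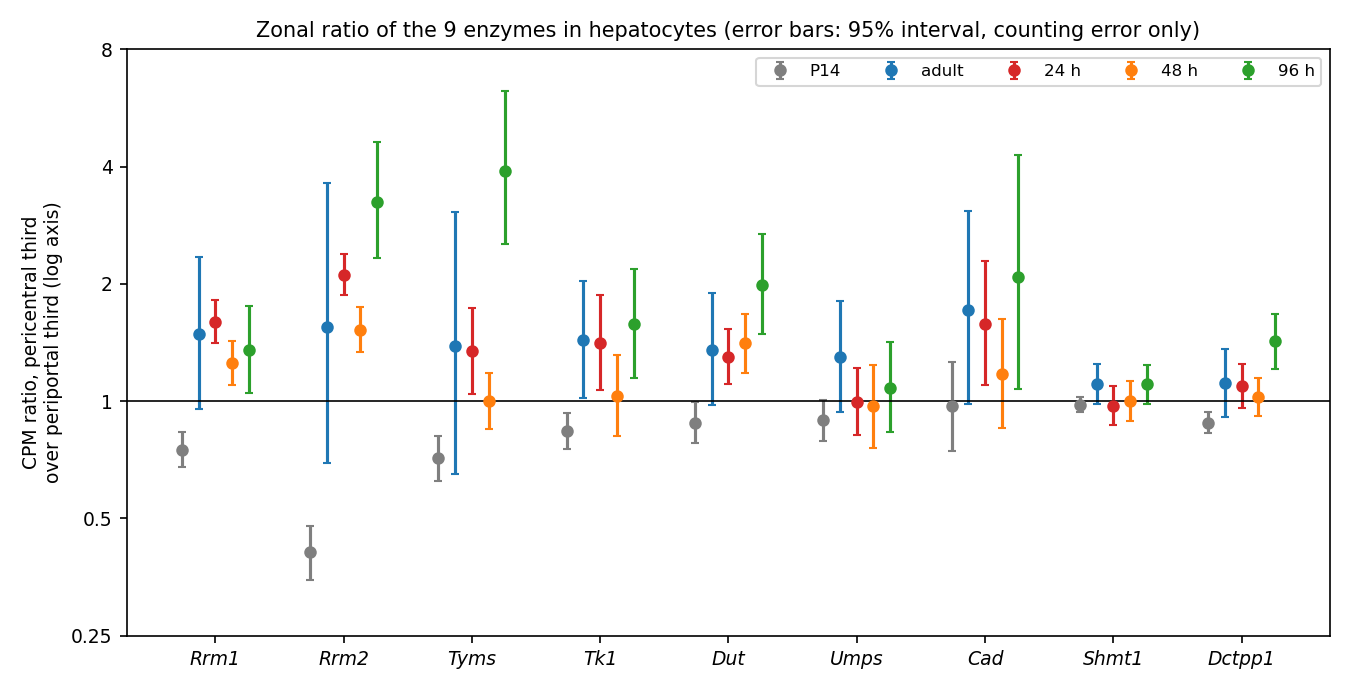
CPM ratio of the pericentral over the periportal part of each library's hepatocytes for the 9 genes, on a log axis, with 95% intervals from the counts. The P14 points lie below 1 for Rrm1 (0.751), Rrm2 (0.409) and Tyms (0.714), and the 96 h points of Rrm2 (3.25) and Tyms (3.90) are the highest.

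Other genes of nucleotide metabolism were counted in 6 lists by the same 2-fold rule against the adult control. Over all genes tested, 9.59% were higher and 8.35% lower for 24 h, with a median ratio of 0.999, and 9.33% and 8.78% for 48 h, with a median of 0.943. Of 16 deoxynucleotide genes, 13 passed 5 CPM, and 3 were higher and 1 lower for 24 h, 5 higher and 0 lower for 48 h. Dck, which salvages deoxycytidine and purine deoxynucleosides, was 5.89-fold (4.71 to 7.44) higher for 24 h and 3.71-fold (2.95 to 4.71) for 48 h. Dtymk, the thymidylate kinase acting after both Tyms and Tk1, was 3.97-fold (3.52 to 4.50) and 3.87-fold (3.43 to 4.38) higher. Tk2, the mitochondrial thymidine kinase, was lower for 24 h, at 0.497 (0.403 to 0.612). Rrm2b, the small reductase subunit used outside replication, stood at 0.597 (0.496 to 0.719) for 24 h, short of 2-fold, and was lower for 96 h, at 0.426 (0.336 to 0.536), and P14, at 0.223 (0.187 to 0.266). Nme1, a nucleoside diphosphate kinase gene, was 2.08-fold (1.97 to 2.19) and 2.53-fold (2.41 to 2.67) higher, and for 48 h Nme2, of the same family, was 2.74-fold (2.40 to 3.14) higher. The list's median ratio was 1.43 for 24 h and 1.32 for 48 h.

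Of 11 pyrimidine genes, 9 passed, and 3 were higher and 1 lower for 24 h, beside 9.59% and 8.35% of all genes, with a median ratio of 1.07. Ctps, which makes CTP, was 5.56-fold (4.25 to 7.40) higher for 24 h and 1.95-fold (1.45 to 2.66) for 48 h, the latter short of 2-fold. Cda, the cytidine deaminase, was 4.28-fold (3.38 to 5.49) higher for 24 h and 3.84-fold (3.02 to 4.92) for 48 h, and Ctps2, a second CTP synthase gene, 2.57-fold (1.92 to 3.48) and 2.89-fold (2.175 to 3.90). Upp2, a uridine phosphorylase, stood at 417 CPM in the adult control and 30.5 CPM for 24 h, a ratio of 0.0732 (0.0671 to 0.0796). Its ratio for 48 h was 0.129 (0.120 to 0.137). In that library 2 genes of the list were higher and 1 lower, with a median ratio of 0.983.

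Of 14 purine synthesis genes, 13 passed, and 0 were past 2-fold in either direction for 24 h, 48 h or 96 h, with a median ratio of 1.24 for 24 h. Of all genes 9.59%, 9.33% and 4.84% were higher in these libraries and 8.35%, 8.78% and 2.31% lower. For P14 3 of the 13 were lower, where 15.3% of all genes were. Of 5 purine salvage genes, 4 passed, 0 were past 2-fold for 24 h and 1 was higher for 48 h, the purine nucleoside phosphorylase gene Pnp at 2.54 (2.37 to 2.73). Among 10 folate genes that passed for 24 h, 1 was higher, the mitochondrial enzyme gene Mthfd2 at 3.86-fold (2.95 to 5.12), and 0 were lower, a share near the 9.59% of all genes. For 48 h 2 of 11 were higher, among them Mthfd2 at 3.37-fold (2.57 to 4.47), and 2 were lower, the folate carrier genes Slc19a1 at 0.351 (0.231 to 0.526) and Slc25a32 at 0.461 (0.405 to 0.525). Of 8 nucleotide breakdown genes, 0 were higher and 2 lower for 24 h, the urate oxidase gene Uox at 0.326 (0.319 to 0.333) and the pyrimidine breakdown gene Dpys at 0.477 (0.450 to 0.505), with a list median of 0.720. For 48 h 1 was higher and 2 were lower. Uox and Dpys were again the lower ones, at 0.237 (0.231 to 0.243) and 0.463 (0.437 to 0.490), and Urad, of the same urate pathway, was 2.19-fold (1.66 to 2.94) higher.

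The genes with the most similar course were sought among 6056 genes of at least 20 CPM in some library. Likeness was the largest difference, over the 5 libraries, between centred log2(CPM + 1) profiles. It describes 5 values that share their libraries. For Rrm1 the nearest gene was Nop58, at a largest log2 difference of 0.19, and for Tyms Spc25 at 0.23. For Tk1 it was Blvrb at 0.11, for Dut Insc at 0.11 and for Dctpp1 Atp5k at 0.08. For Umps it was Tcf12 at 0.07, for Cad Rps28 at 0.07 and for Shmt1 Got2 at 0.08. The next nearest genes were Ezh2 and Tubb2a for Rrm1, Ncapg2 and Esco2 among the 3 nearest of Rrm2, Smc4 and Cenpa for Tyms, Mtx1 and Osgep for Tk1 and Hspa14 and Zbp1 for Dut. They were Pfdn1 and Exosc4 for Dctpp1, Thap12 and Naa20 for Umps, Gins4 and Wdr89 for Cad and Cryzl2 among the 3 nearest of Shmt1, and over all 9 members the 3 nearest genes lay 0.07 to 0.50 away. Rrm2 itself lay 0.78 from Rrm1 and 1.63 from Tyms. With a minimum of 50 CPM in place of 20, between 0 and 3 of the 3 nearest genes of each member were kept. Those kept were the ones that themselves reached 50 CPM, so this count does not test the likeness.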

How the data were processed

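Matrices of UMI counts were deposited by the authors for each of 5 libraries. Per the file headers they were written by software version 3.0.2, and per the submitters' processing notes the build was mm10 and the tools were Cell Ranger, bcl2fastq 2.17.1.14 and Seurat 3.1. Each matrix lists 6794880 barcodes and was used unfiltered. Total counts were 80927744 to 136110607 UMIs per library. Hepatocyte counts were summed per library, without the 13 mitochondrial genes. Ratios had no pseudocount, with a count of 0 set to a floor of 3 counts. Intervals were exact Poisson for levels, exact Clopper-Pearson for shares and exact conditional for ratios. A gene was counted where it passed 5 CPM in 1 of the libraries compared, and called at 2-fold. Free RNA was read from barcodes of rank 20001 to 60000. Doublets were not removed; Scrublet in scanpy 1.11.5, and TMM in edgeR 4.0.16, were alternatives. Scripts used Python 3.11.15, and the ratio step was tested on simulated data. The members, lists and rules were chosen with earlier results of these data known. The text names all 9 members, the 3 nearest genes of each, and up to 5 genes per list and direction past 2-fold at 24 h or 48 h, except 4 genes that are not reported here; Rrm2b and Afmid were added after their values were seen.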

Additional observations from a re-analysis of the deposited data

Results flagged for a closer look

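The zonal ratio, pericentral over periportal CPM, lay on opposite sides of 1 in the P14 library and in others for 6 members, with intervals that left out 1, where 10.2% of 8337 genes lay below 1 for P14 and above it in another library. This difference between libraries was not tested, as there was 1 library per group. The ratio of Rrm1 was 0.751 for P14 and 1.60 for 24 h, 1.25 for 48 h and 1.36 for 96 h. For Rrm2 it was 0.409 for P14 and 2.11, 1.53 and 3.25 in the same order. Tyms gave 0.714 for P14, 1.34 for 24 h and 3.90 for 96 h. Tk1 gave 0.838 for P14, 1.44 for the adult control, 1.41 for 24 h and 1.57 for 96 h. Dut gave 0.881 for P14, 1.30 for 24 h, 1.41 for 48 h and 1.99 for 96 h, and Dctpp1 0.880 for P14 and 1.42 for 96 h.

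In cells other than hepatocytes, the summed level of the 9 transcripts was above that of the same class of the adult control, with separate intervals, in some libraries. At the level of cell-free droplets, free RNA would give 32.9% of the member UMIs in T or NK-like, 53.3% in B-like and 78.6% in erythroid-like cells of the adult control, and in its 33 endothelial-like cells it would give 16.1 UMIs, more than the 15 found. No change from the adult level of these classes is read. For P14 the free RNA share was 1.19% to 7.91% in the 4 classes. It was 24.7% to 70.3% for 24 h, the most in endothelial-like cells. For 48 h it was 9.83% to 21.6%, and for 96 h 14.8% to 44.6%, the most in B-like cells. The sums below include it. In B-like cells the members summed to 1809 CPM for P14 and 392 for 24 h, against 213 CPM in the adult control, and to 171 for 48 h and 206 for 96 h. Erythroid-like cells held 1421 CPM for P14 and 236 for 96 h, against 140.2, and 134 for 24 h and 121 for 48 h. In endothelial-like cells the sums were 585 CPM for P14 and 449 for 96 h, against 163, and 230 for 24 h. In T or NK-like cells they were 384 CPM for P14 and 353 for 96 h, against 238 in the adult control, 284 for 24 h and 238 for 48 h.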

How the results depend on the processing

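No paired analysis was possible because each group had 1 library, and no library could be left out for the same reason. Of 238 alternative values of the counts and shares, 206 stayed within 1.5 times the count or within the interval of the share, and 32 moved. The count of members past 2-fold moved for 96 h to 1 with a pseudocount of 10 CPM, and for P14 to 7 with at least 5% Alb, Apoa1 and Ttr and to 6 with TMM. For 48 h over 24 h it was 0 with 0% to 30% mitochondrial UMIs, with that pseudocount and at 3-fold, and the count lower for 96 h over 48 h was 0 at 3-fold. Replication-positive over non-cycling cells gave 2 for 24 h and 3 for 48 h with that pseudocount. The share of all genes past 2-fold was not computed for any alternative. The share of hepatocytes with at least 3 members, in the order P14, adult control, 24 h, 48 h and 96 h, was 14.2%, 5.02%, 21.2%, 19.3% and 14.0% with 0% to 30% mitochondrial UMIs. It was 85.1%, 37.6%, 66.8%, 83.4% and 60.8% without thinning, 33.7%, 11.2%, 41.2%, 42.3% and 27.2% thinned to 10000 UMIs, and 35.6%, 20.3%, 40.3%, 38.0% and 26.98% for at least 2 members. In the adult control it was 1.54% with a minimum of 10000 UMIs and 0% with the 5% limit, and for 48 h 21.6% with 10% to 25% mitochondrial UMIs. The causes were not tested. The 5% limit left 47 hepatocytes in the adult control, 6 for 24 h and 2 for 48 h, so it gave no value for 24 h and 48 h. Alternatives for the zonal, non-cycling and single-gene cell cycle ratios were chosen after seeing the data. Of 1558 values of single genes, 207 moved and 0 of those past 2-fold changed direction. The Rrm2 ratios over the adult control rest on 50 UMIs there.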

Other observations

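The B-like and erythroid-like cells of the P14 liver held higher levels of Rrm1, Rrm2, Tyms, Tk1 and Dut than all hepatocytes of any library summed. In mitosis-positive hepatocytes Rrm1 stood at 177 CPM for 24 h, inside the B-like interval below. Tk1 stood there at 106 CPM for P14, inside the erythroid-like interval below. Rrm2 (315 CPM for 24 h), Dut (101 CPM for 24 h) and Tyms (81.4 CPM for P14) stayed below the values given next. In 76 B-like cells for P14, Dut stood at 654 (599 to 714) CPM, Rrm2 at 491 (443 to 543), Rrm1 at 190.1 (161 to 223) and Tyms at 142 (117 to 171). In 31 erythroid-like cells for P14, Rrm2 stood at 463 (401 to 532) CPM, Dut at 355 (302 to 416) and Tk1 at 126 (94.99 to 164), whereas Shmt1 rested on 3 UMIs. In 109 B-like cells of the adult control, Rrm1 had 0 UMIs, which allows up to 6.38 CPM by a limit of 3 counts and up to 7.84 CPM by the exact Poisson interval. Each class comes from 1 library.

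Barcodes with under 10% mitochondrial UMIs that met the other limits were left out of the hepatocytes. They numbered 684 for 96 h, where Rrm1 stood at 7.38 (5.55 to 9.63) CPM, beside 28.3 CPM in the hepatocytes, and Dctpp1 at 169 (159.956 to 179), beside 71.5 CPM. For 24 h there were 328, with Rrm1 at 23.3 (18.6 to 28.8) CPM and Dctpp1 at 199 (185 to 214), beside 84.3 and 80.1 CPM in the hepatocytes. Tyms stood at 57.7 (50.2 to 66.1) CPM in these barcodes for 24 h, beside 20.2 CPM in the hepatocytes. In the 176 such barcodes for 48 h it stood at 75.4 (65.4 to 86.6) CPM, beside 43.8 CPM.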
